A study of Mus musculus with 2 samples.

Results

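The HoxD genes are a row of homeobox genes lying side by side on mouse chromosome 2. Their promoters were examined for Ring1B, a Polycomb protein, in mouse embryonic stem (ES) cells. Members were chosen by name alone: every probe that was not a control and whose gene name on the array, or one side of a joined name at a divergent promoter, was Hoxd followed by a number. This gave 8 genes, Hoxd13, Hoxd12, Hoxd11, Hoxd10, Hoxd9, Hoxd4, Hoxd3 and Hoxd1, of the 16908 gene names that had at least 3 probes, and 319 of 474222 probes. Of the 9 HoxD genes looked for, Hoxd8 had no probe under its name and was not analysed here. All 8 lay on the first of the 2 arrays, and 1 further probe, of Hoxd10, was marked as an outlier by the scanner software and left out.

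The assay was ChIP-chip, in which antibody-bound DNA in one dye and input DNA, prepared without the antibody step, in another compete for the same probes. The immunoprecipitate made with a monoclonal Ring1B antibody carried Cy5 and the input carried Cy3, both from untreated ES cells. The labels used here give no strain, cell line or genotype, and the source names begin with the word Muscle although titles and design text name ES cells; both channels hold DNA, so the cell type could not be checked against expressed markers. The 2 arrays were different designs with 0 probes in common, so each promoter was measured once, with no replicate, no dye swap and no mock immunoprecipitation, and no test or p-value across genes was possible. Values are log2 ratios of immunoprecipitate over input for 1 probe, set to 0 at the median probe of the array. Each gene was summarised by averaging its probes, and the SD given beside it is taken over those probes; it describes how a promoter varies along its length and is not a replicate error.

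Hox proteins are transcription factors that give cells their position along the body axis and, for HoxD, along the limb and genital bud. The genes stand on the chromosome in the order in which they are used: those with low numbers act early and towards the head, those with high numbers late and towards the tail and the digits. Ring1B, encoded by Rnf2, is the catalytic subunit of Polycomb repressive complex 1 and attaches ubiquitin to histone H2A, and Hox clusters are classical Polycomb targets in ES cells, where they are kept silent.

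The probe with the highest ratio in each gene is printed to show what kind of sequence gave the strongest signal, 5′ to 3′ as in the array file, with CpG dinucleotides in capitals. Coordinates are those of the array files, for which no genome build was stated in the sources used here.
Hoxd13 (chr2:74503583-74503627): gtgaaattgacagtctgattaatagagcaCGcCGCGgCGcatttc
Hoxd12 (chr2:74516742-74516786): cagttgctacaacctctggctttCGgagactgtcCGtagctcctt
Hoxd11 (chr2:74523467-74523515): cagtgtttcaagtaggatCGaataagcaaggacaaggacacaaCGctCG
Hoxd10 (chr2:74531705-74531749): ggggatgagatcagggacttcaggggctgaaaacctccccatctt
Hoxd9 (chr2:74542438-74542482): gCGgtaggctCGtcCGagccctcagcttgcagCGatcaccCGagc
Hoxd4 (chr2:74563847-74563905): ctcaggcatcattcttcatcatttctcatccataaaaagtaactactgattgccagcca
Hoxd3 (chr2:74589737-74589790): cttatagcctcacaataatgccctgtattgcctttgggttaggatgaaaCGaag
Hoxd1 (chr2:74606694-74606738): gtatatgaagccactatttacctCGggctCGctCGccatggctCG
The highest probe of all was that of Hoxd10, at a log2 ratio of 4.10, with a signal of 13829 in the immunoprecipitate and 688 in input, and it holds 0 CpG. The Hoxd13 probe, in the interval shared with Evx2, stood at 4.07 and holds 4 CpG. The other best probes stood at 3.72 for Hoxd9, 3.71 for Hoxd12, 3.23 for Hoxd11, 3.13 for Hoxd3, 2.86 for Hoxd4 and 2.42 for Hoxd1. These best probes hold from 0 to 5 CpG, and that of Hoxd4, like that of Hoxd10, has none.

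The comparison of immunoprecipitate with input asked which HoxD promoters carried Ring1B. The 5 genes at the Hoxd13 end of the cluster, Hoxd13 to Hoxd9, all averaged 1 or more on the log2 scale, and the 3 at the other end, Hoxd4, Hoxd3 and Hoxd1, did not. Of all 8512 genes on the array, 1.63% were at or above 1 and 1.97% were at or below -1. No HoxD gene was at or below -1. Over all HoxD probes the median was 1.09, against 0 for the array, and 166 of the 319 probes (52.0%) were at or above 1, against 17.7% of all probes. Only 15 HoxD probes (4.70%) were at or below -1, against 20.4% of all probes.

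Hoxd10, which patterns the lumbar spinal cord and hindlimb, had the highest level of the cluster. Its 51 probes ran from -0.04 through a median of 2.21 to 4.10, and only 1 of them lay below 0. The mean was 2.01 ± 1.07 (SD over probes), 4.03-fold above the median probe and rank 6 among the 8512 genes. Hoxd10 probes at or above 1 numbered 39 (76.5%), and 27 were at or above 2.

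Hoxd9, which acts in the lumbosacral region and the forelimb together with its paralogues, came next. Its 26 probes ran from -0.30 through a median of 1.40 to 3.72, with a mean of 1.67 ± 1.15 and rank 27. Upstream and inside probes had similar means, 1.71 ± 1.12 over 14 upstream probes and 1.63 ± 1.24 over 12 inside probes. The inside signal lay mainly away from the start. The 6 probes in the first 1000 bp averaged 1.07 ± 1.40, with 2 at or above 1, and the 6 beyond averaged 2.19 ± 0.81. Hoxd12 and Hoxd11, both limb and posterior trunk genes, stood close together at ranks 52 and 60. Hoxd12 ran from -0.36 through 1.45 to 3.71 with a mean of 1.46 ± 1.07 (34 probes). Hoxd11 ran from -1.76 through 1.55 to 3.23 with a mean of 1.41 ± 1.14 (40 probes). The lowest Hoxd11 probe lies far upstream of its start, and only 3 of the 40 were below 0.

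Hoxd13, needed for the digits and the genital tubercle, had a mean of 1.39 ± 1.08 over 51 probes that ran from -0.55 through 1.28 to 4.07, at rank 63. Of these, 41 lie in the interval between Hoxd13 and Evx2, a homeobox gene transcribed in the opposite direction, and the array names them for both genes. The 10 probes inside Hoxd13 averaged 2.11 ± 0.90, with 9 at or above 1, and the 41 shared ones averaged 1.21 ± 1.05, with 22 at or above 1. The Hoxd13 mean thus depends on the shared probes: with them it is the lowest of the 5 genes at its end, and without them it is 2.11. Over inside probes alone Hoxd12 averaged 2.75, Hoxd10 2.21, Hoxd9 1.63 and Hoxd11 0.90. The 14 probes inside Evx2 averaged 2.31 ± 1.07, so high signal was also found past the last Hox gene. It was not continuous with that at Hoxd13: the high region there, as defined below, ended at 74504374 and the next began at 74508763.

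The 3 genes with low numbers, used in the hindbrain and neck, were lower, with means above the array median but below 1, and scattered widely. Hoxd3 had a mean of 0.52 ± 1.04 over 44 probes that ran from -1.55 through 0.42 to 3.13, with 15 at or above 1 and 14 below 0. Hoxd1 had a mean of 0.34 ± 1.24 over 37 probes that ran from -2.61 through 0.13 to 2.42, with 10 at or above 1 and 14 below 0. Hoxd4 had a mean of 0.31 ± 1.34 over 36 probes that ran from -2.21 through 0.20 to 2.86, with 8 at or above 1 and 17 below 0. Their ranks were 460 for Hoxd3, 904 for Hoxd1 and 1014 for Hoxd4. Probes of all 8 genes overlap in value, and each step between neighbours in the order of means, also the widest of 0.87 between Hoxd13 and Hoxd3, is smaller than either gene's SD over probes.

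**Figure D1:**
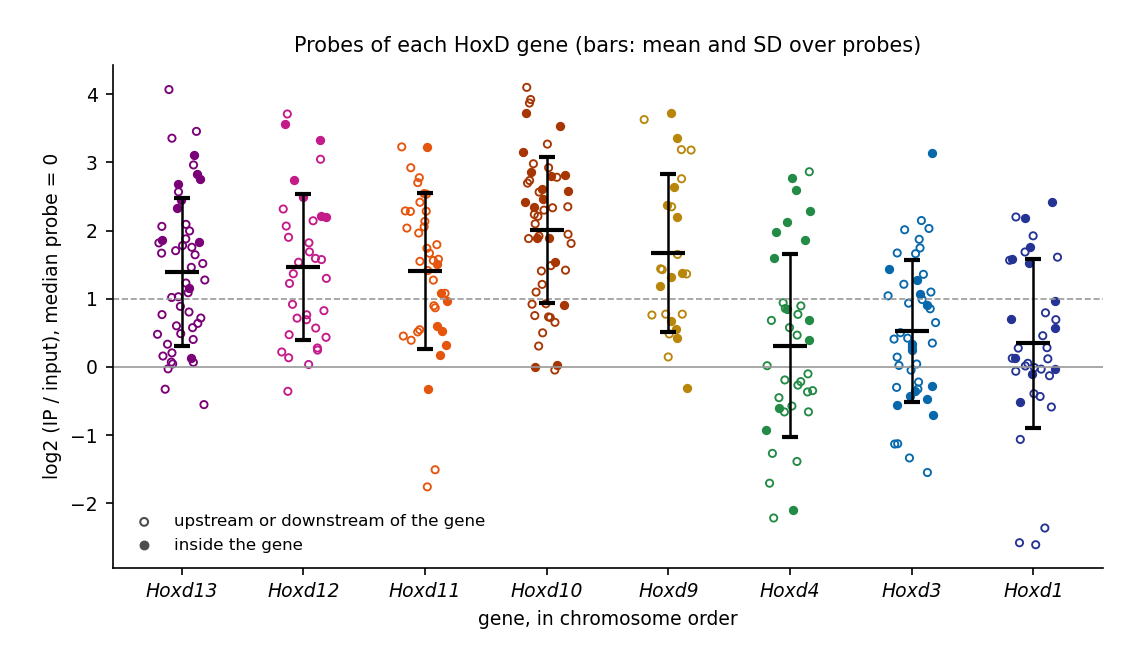
Log2 ratio of immunoprecipitate over input (vertical axis, median probe of the array at 0) for every probe of each HoxD gene in chromosome order; filled points lie inside the gene, open points outside it, and black bars give the mean and the SD over probes. The means of Hoxd13 to Hoxd9 lie between 1.39 and 2.01, and those of Hoxd4, Hoxd3 and Hoxd1 between 0.31 and 0.52.

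Taken as 2 blocks, a split chosen after the values were seen, Hoxd9 to Hoxd13 had a probe median of 1.58, with 133 of 202 probes (65.8%) at or above 1 and 9 below 0. Hoxd1 to Hoxd4 had a probe median of 0.33, with 33 of 117 probes (28.2%) at or above 1 and 45 below 0. The scanner software's own p for a single spot, which covers the spot's measurement error only and is not centred, was under 0.01 with a ratio above 0 at 156 probes (77.2%) of Hoxd9 to Hoxd13 and at 40 (34.2%) of Hoxd1 to Hoxd4. Over the whole array that share was 15.8%. The same p with a ratio below 0 was found at 2 and 11 HoxD probes of these blocks, against 18.2% of all probes. Dim spots were fewer in the first block: input was not well above background at 5.94% of the Hoxd9 to Hoxd13 probes, 15.4% of the Hoxd1 to Hoxd4 probes and 25.9% of all probes. Among probes with input well above background the medians were 1.67 for Hoxd9 to Hoxd13 (190 probes), 0.46 for Hoxd1 to Hoxd4 (99 probes) and -0.25 for the array. Across the 8 genes the mean went with the gene's number at Pearson 0.85 and Spearman 0.50, a description of 8 neighbouring genes on 1 array.

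Extent along the chromosome was described with regions: 3 or more probes in a row at which the running mean (all probes within 500 bp on either side) was 1 or higher. The stretch of 105574 bp between the first and last HoxD probe was overlapped by 16 such regions and by 1 with the sign turned. The array as a whole had 2382 of the first kind and 5070 of the second, but 228 and 79 when only those of at least 2000 bp were counted. At HoxD 7 regions were that long, and all 7 held probes of Hoxd9 to Hoxd13, the first of them lying mostly in Evx2. All 5 of those genes had a probe in such a region, against 2.66% of the array's genes, and Hoxd4, Hoxd3 and Hoxd1 had none.

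The longest HoxD region covered the Hoxd10 start and gene and ran into the Hoxd9 promoter (chromosome 2, 74532858 to 74539372). It spanned 6515 bp with 37 probes, a mean of 1.96 and rank 10 by length on the array. The next covered the Hoxd11 promoter (74521366 to 74526242), with 4877 bp and a mean of 2.00. One of 3552 bp began inside Evx2 and reached the shared interval at a mean of 2.34. From Hoxd13 to Hoxd9 high regions filled 27.0 kb of 40.5 tiled kb (66.6%). From Hoxd4 to Hoxd1 they filled 3.97 kb of 27.4 tiled kb (14.5%), in 5 regions of 312 to 1046 bp. This stretch includes 23 probes within Hoxd4 that are named for mir-10b, a microRNA gene. The probe counts of Hoxd1 to Hoxd4 given above leave them out. With a running mean over 250 bp in place of 500 bp, the total over the cluster was 13232 bp in place of 33502 bp, in the same number of regions.

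The 5 short regions mark where the low-numbered genes still had signal. At Hoxd4 one of 1032 bp (74565272 to 74566303, mean 1.70) sits over the start and one of 835 bp (mean 1.99) lies inside the gene. Hoxd3 had 746 bp upstream (mean 1.53) and 312 bp inside (mean 1.88). At Hoxd1 a region of 1046 bp (mean 1.27) begins at the start and covers the first part of the gene. A gap of 16314 bp without probes separates Hoxd9 from Hoxd4, and Hoxd8 lies between those genes. The running mean was 2.13 at the last Hoxd9 probe and -0.31 at the first Hoxd4 probe, and no probe shows the course of the signal between them. Further gaps of 10133 bp and 11163 bp lie on either side of Hoxd3.

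**Figure D2:**
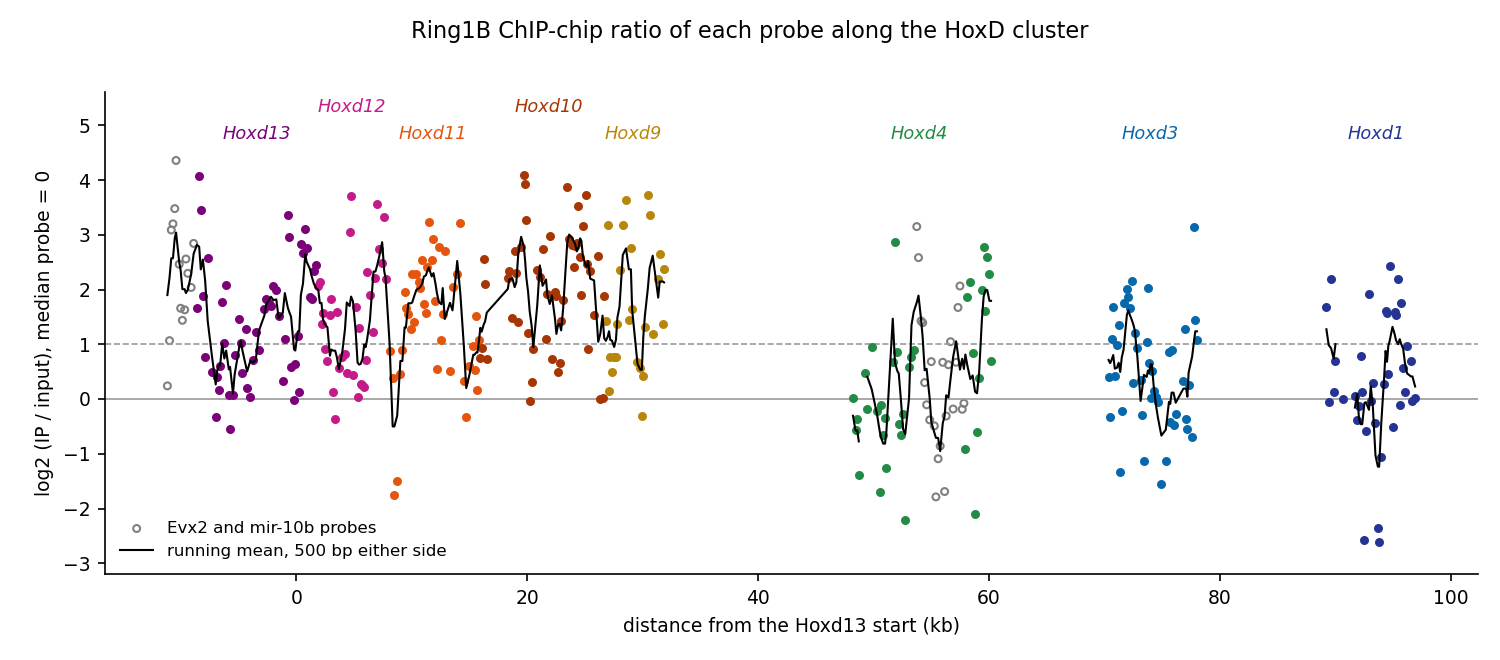
Log2 ratio of immunoprecipitate over input (vertical axis, median probe of the array at 0) against distance from the Hoxd13 start in kb; each point is a probe coloured by gene, open grey points are Evx2 and mir-10b probes, and the black line is the running mean over 500 bp on either side, broken where no probe lies. The line stays mostly above 1 from Evx2 to Hoxd9 and crosses 0 repeatedly at Hoxd4, Hoxd3 and Hoxd1.

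Farther out than Evx2 the 2 tiled genes were near the array median. Lnp, 75.2 kb beyond the Hoxd13 end, had 0.04 ± 1.25 (31 probes), and Mtx2, a mitochondrial import gene 55.4 kb beyond the Hoxd1 end, had -0.24 ± 0.98 (32 probes). No other gene beyond the cluster was tiled within 500 kb of it, apart from Evx2. The long noncoding RNA gene 6720416L17Rik, now Haglr, shares 10 upstream probes with Hoxd1, which averaged 0.50 ± 0.85.

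Around the transcription start the genes differed in where the signal lay. In the first 1000 bp inside the gene Hoxd10 averaged 2.83 ± 0.38 and Hoxd12 averaged 2.75 ± 0.58, with all 6 probes of each at or above 1. Hoxd13 averaged 2.11 ± 1.19 there, also over 6 probes. Hoxd11 and Hoxd9 were lower at that place than upstream of it: Hoxd11 averaged 0.95 ± 1.56 inside over 4 probes and 1.62 ± 0.96 in the 1000 bp upstream over 3, and Hoxd9 averaged 1.07 ± 1.40 inside over 6 and 2.37 ± 1.02 upstream over 4. Each of these windows rests on few probes, and the values inside and upstream overlap in both Hoxd11 and Hoxd9.

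Among the low-numbered genes, Hoxd1 averaged 1.18 ± 1.21 in its first 1000 bp (6 probes) and -0.30 ± 1.74 in the 1000 bp upstream (7 probes). Around the start given in the array files, Hoxd3 averaged -0.07 ± 0.65 inside (4 probes) and -0.47 ± 1.08 upstream (4 probes). Within 1000 bp of that start on either side it was -0.27, so its positive mean came from farther out. RefSeq places a Hoxd3 start elsewhere, as given below, and no probe measured that one. For Hoxd4 no probe in the first 1000 bp carries the gene's own name. The array names the 23 probes from 67 to 4150 bp inside Hoxd4 for mir-10b, a microRNA gene within it, and these averaged 0.40 ± 1.27. The 6 of them in the first 1000 bp of Hoxd4 averaged 1.46 ± 1.26, with 4 at or above 1. With all mir-10b probes added, a choice made after the values were seen, the Hoxd4 mean was 0.34 ± 1.30 over 59 probes.

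Promoter sequences are printed for 4 genes that have probes within the window, the highest and the lowest gene of the cluster (Hoxd10 and Hoxd4) and the outermost gene at each end (Hoxd13 and Hoxd1). They come from RefSeq on build GRCm38.p6, plus strand, from 250 bases before to 50 after the annotated start, and array probes found in them by exact match are in capitals.
Hoxd10 (chr2:74691641-74691940): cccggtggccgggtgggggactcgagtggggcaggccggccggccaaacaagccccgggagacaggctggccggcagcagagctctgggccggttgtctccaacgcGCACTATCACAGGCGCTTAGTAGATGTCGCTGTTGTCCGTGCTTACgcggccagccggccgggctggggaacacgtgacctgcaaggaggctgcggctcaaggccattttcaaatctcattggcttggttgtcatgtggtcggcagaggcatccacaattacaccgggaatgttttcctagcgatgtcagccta
Hoxd13 (chr2:74667975-74668274): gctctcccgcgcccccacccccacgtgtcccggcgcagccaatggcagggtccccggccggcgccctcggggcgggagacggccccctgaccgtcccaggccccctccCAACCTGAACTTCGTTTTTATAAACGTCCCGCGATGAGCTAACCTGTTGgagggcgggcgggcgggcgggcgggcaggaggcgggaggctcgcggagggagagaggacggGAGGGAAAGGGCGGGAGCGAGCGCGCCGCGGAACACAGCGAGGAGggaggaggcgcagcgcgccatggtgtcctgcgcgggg
Hoxd4 (chr2:74721728-74722027): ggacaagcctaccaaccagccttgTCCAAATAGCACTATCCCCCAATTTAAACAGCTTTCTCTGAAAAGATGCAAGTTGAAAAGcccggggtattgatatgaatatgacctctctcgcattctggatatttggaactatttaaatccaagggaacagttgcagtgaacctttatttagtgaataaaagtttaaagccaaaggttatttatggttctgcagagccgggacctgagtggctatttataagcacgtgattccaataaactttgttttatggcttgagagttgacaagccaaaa
Hoxd1 (chr2:74762730-74763029): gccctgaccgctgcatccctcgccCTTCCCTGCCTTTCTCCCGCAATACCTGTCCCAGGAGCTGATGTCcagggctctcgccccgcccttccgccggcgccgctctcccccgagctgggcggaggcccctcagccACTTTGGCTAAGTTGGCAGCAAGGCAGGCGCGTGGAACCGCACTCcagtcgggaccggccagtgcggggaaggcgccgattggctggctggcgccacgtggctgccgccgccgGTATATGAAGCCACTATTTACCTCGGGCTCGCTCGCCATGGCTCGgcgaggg
The Hoxd10 probe in this window had a log2 ratio of 3.87, and the Hoxd4 probe had 0.90. At Hoxd13 the 2 probes had -0.03 and 0.64, and the first of them was at floor values in both channels, so that its ratio says nothing of the signal there. At Hoxd1 the 3 probes had 1.56, 0.46 and 2.42, in the order of the sequence, and the last of them spans the start. RefSeq windows were found for all 8 measured genes, but those of Hoxd3 and Hoxd9 held no array probe. In the others 11 HoxD probes matched, each at the same distance of 156284 bp from its position in the array files, which are therefore on another build. The Hoxd3 window (chr2:74711743-74712042) lies before that of Hoxd4, whereas the Hoxd3 start of the array files lies after Hoxd4, so these are different starts.

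The 4 windows differ widely in CpG content. Hoxd13 holds 37 CpG, a number reached by 5.58% of 32851 mouse promoter windows, Hoxd1 holds 29 (12.9%) and Hoxd10 holds 22 (23.1%), whereas Hoxd4 holds 4 (68.6%). The median window holds 7. Motifs were searched on both strands in these 4 windows. The string CGCG occurs in 38.0% of all mouse windows and was found 7 times at Hoxd13, 2 times at Hoxd10 and 1 time at Hoxd1. GAGAG occurs in 62.0% and was found 3 times each at Hoxd13 and Hoxd4 and 2 times at Hoxd1. CCATNTT, the core of the YY1 site, occurs in 16.1% and was found 1 time, at Hoxd10. The octamer-like ATGCNAAT occurs in 3.15% and was not among the letters of the 4 windows. A match is a string of letters and not a binding site.

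Probe by probe, the 2 blocks were compared within classes of CpG number. Among probes with 0 CpG the median was 1.36 for Hoxd9 to Hoxd13 (81 probes, 58.0% at or above 1) and 0.13 for Hoxd1 to Hoxd4 (71 probes, 21.1%), against -0.01 for the array (14.9%). With 1 CpG it was 1.86 (70 probes, 77.1%), 0.20 (28 probes, 21.4%) and 0.01 in the same order. With 2 or 3 CpG the blocks were closer, at 2.06 (36 probes) and 1.67 (14 probes), against 0.07. Only in this class was the share at or above 1 lower for Hoxd9 to Hoxd13, at 63.9% against 71.4% for Hoxd1 to Hoxd4. With 4 or more CpG the medians were 1.32 (15 probes, 9 at or above 1) and 0.99 (4 probes, 2 at or above 1), against 0.24. The block means of that class, 1.64 and 0.97, lay farther apart than those with 2 or 3 CpG, 1.86 and 1.47. With 4 probes in 1 block, these 2 classes cannot be ranked by how close the blocks were. Over all 319 HoxD probes CpG number and ratio correlated weakly (Pearson 0.20, Spearman 0.27), a description of neighbouring probes of 1 array. It was higher within Hoxd3 (0.45 and 0.41, 44 probes) and Hoxd12 (0.44 and 0.49, 34 probes) than within Hoxd10 (0.05 and 0.06, 51 probes); these differences were not tested.

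**Figure D3:**
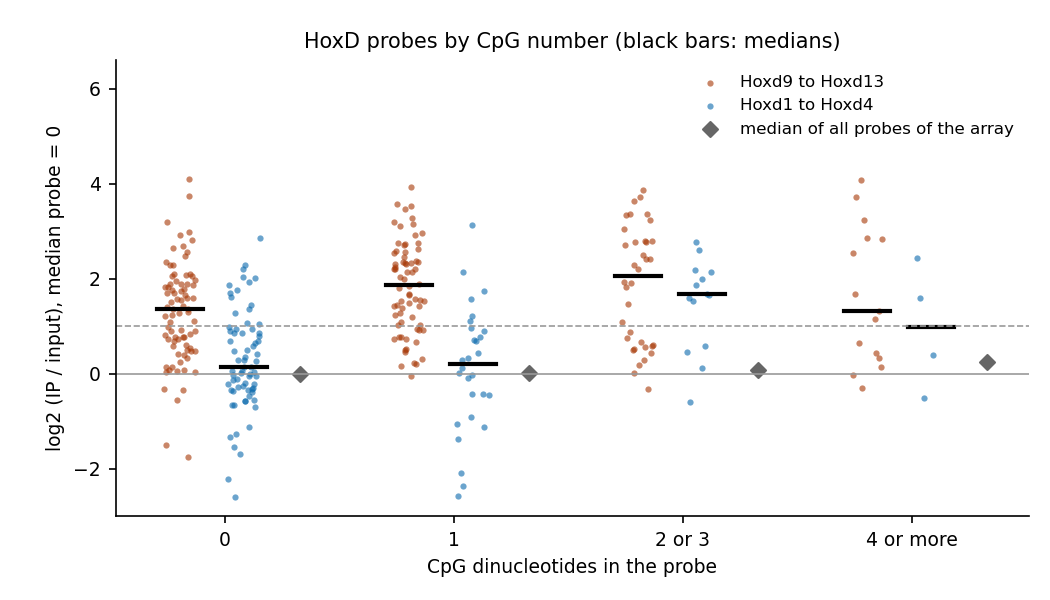
Log2 ratio of immunoprecipitate over input (vertical axis, median probe of the array at 0) of HoxD probes by the number of CpG dinucleotides in the probe, for Hoxd9 to Hoxd13 and for Hoxd1 to Hoxd4; black bars are medians and grey diamonds the medians of all probes of the array. Probes of Hoxd9 to Hoxd13 without any CpG have a median of 1.36, and the array's probes of that class have -0.01.

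The other Hox clusters give the nearest comparison, side by side and without a test, since HoxB and HoxC are on the other array. The median of gene means was 1.40 in HoxD (8 genes), 1.41 in HoxA (10 genes), 1.73 in HoxB (7 genes) and 1.32 in HoxC (8 genes). Genes at or above 1 numbered 5, 8, 6 and 8 in that order. Over probes HoxD was the lowest, with 52.0% at or above 1, against 65.0% in HoxA, 74.6% in HoxB and 62.3% in HoxC. On the array with HoxD and HoxA, 1.63% of all genes and 17.7% of all probes were at or above 1. These shares are not reported here for the array with HoxB and HoxC. Its SD over all probes was 1.44, against 1.33, so a cut at 1 is not alike on both arrays. The measured genes differ between clusters: HoxC had 0 genes numbered 1 to 4 and HoxD had 0 numbered 5 to 8. Within HoxD the share was 28.2% over the 117 probes of Hoxd1 to Hoxd4 and 65.8% over the 202 of Hoxd9 to Hoxd13.

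By paralogue, genes of the same number in different clusters that descend from one ancestral gene, Hoxd9 and Hoxd13 lay between their relatives and Hoxd10, Hoxd11 and Hoxd12 did not. Hoxd10 had the highest mean of its 3 measured paralogues, against 1.23 for Hoxc10, the lowest. Hoxd12 at 1.46 was above Hoxc12 at 1.41, Hoxd11 at 1.41 was the lowest of its 3 with Hoxa11 highest at 2.13, and Hoxd9 and Hoxd13 each ranked 3 of 4. Among the anterior genes Hoxd4 at 0.31 was the lowest, against 0.84 for Hoxa4 and 1.81 for Hoxb4. Hoxd3 at 0.52 lay between Hoxa3 at -0.48 (8 probes only) and Hoxb3 at 2.15. Genes numbered 9 to 13 were at or above 1 in every case, with 5 of 5 in HoxD, 4 of 4 in HoxA, 2 of 2 in HoxB and 5 of 5 in HoxC. The share of all genes was 1.63% on the array with HoxD and HoxA, and is not reported here for the other array.

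**Figure D4:**
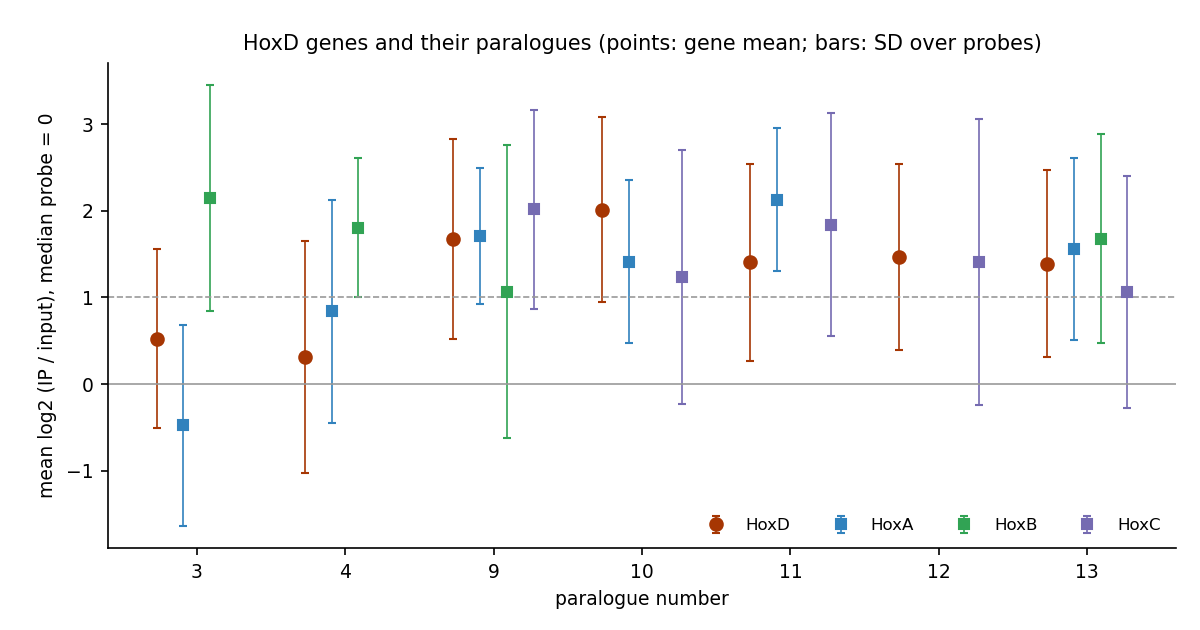
Mean log2 ratio of immunoprecipitate over input per gene (vertical axis, median probe of the array at 0) by paralogue number from 3 to 13, with HoxD as round points and HoxA, HoxB and HoxC as squares; bars are the SD over probes. Hoxd3 and Hoxd4 lie at 0.52 and 0.31; Hoxd10 and Hoxd12 are the highest of their paralogues, and Hoxd11 and Hoxd4 the lowest.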

How the data were processed

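Ring1B-immunoprecipitated DNA (Cy5) and input DNA (Cy3) of ES cells were measured on 2 arrays of designs 014716 and 014717, per the file headers. The array files come, per the file headers, from the authors' scanner software, Feature Extraction version 9.1.3.1. It gave each spot a background-subtracted intensity, scaled by a linear dye factor and set to a floor where dim, per the file headers. That software also gives a log10 ratio and a p-value per spot in the deposited files. The deposited series table holds the log2 ratio of mean signals, which the array files give to within 5.0e-05, and served as an alternative.

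The value computed here was the log2 of red over green processed signal, minus the array median (0.23 on the array with HoxD). Controls and 141 outlier probes of that array were left out, which left 237054, of which input was well above background at 74.1%. Genes needed 3 probes, and names at divergent promoters were split between both genes. Regions ended at gaps of 1000 bp. Precision is limited by there being 1 array per promoter. Alternatives were normexp with offset 50 and loess (limma 3.58.1), no centring, the series table, filters on dim and floor probes, correction by GC class of 2 percentage points, the probe median, no divergent probes, 1000 bp around the start, and other thresholds, windows and gaps. Gene means and regions were tried on simulated data with independent noise at each probe, and the outcome is not reported here. Neighbouring probes within HoxD genes correlated at Pearson 0.28 (Hoxd3) to 0.52 (Hoxd13), so that trial cannot vouch for the regions. Genes were named by rule: every HoxD gene on the array, its flanking genes, and paralogues in counts and ranges with the highest and lowest, of which some are not reported here. The members, the lists and the blocks of the cluster were chosen with earlier results of these data known.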

Additional observations from a re-analysis of the deposited data

How the results depend on the processing

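The same 5 HoxD genes were at or above 1 in all 10 other ways of making the gene values, while the share of all genes at or above 1 ran from 1.75% without divergent probes to 7.12% within 1000 bp of the start. At a threshold of 1.5 the count was 2, Hoxd10 and Hoxd9, where 0.517% of all genes passed, and at 0.58 it was 5, where 4.43% passed. The median over HoxD probes, 1.09 as reported, was 1.33 with normexp, 1.30 with loess, 1.32 without centring, 1.29 with the series table and 1.30 without probes dim in input. Regions numbered 10 with a running mean over 1000 bp, against 16 as reported, and covered 13232 bp with 250 bp. Leaving out the centring adds the array median of 0.23; the cause of the other shifts was not tested. Of 81 values of single genes under other settings, 8 moved by more than 1.96 standard errors over probes. The ranges were 0.13 to 0.57 for Hoxd1, -0.27 to 0.85 for Hoxd3 and 0.01 to 0.58 for Hoxd4, against 2.01 to 2.35 for Hoxd10 and 1.28 to 2.11 for Hoxd13. The 0.01 for Hoxd4 came from the setting within 1000 bp of the start and rests on 4 upstream probes. That setting leaves out the 6 mir-10b probes in the first 1000 bp, which averaged 1.46.

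Limits: each promoter was measured on 1 array without replicates, so the SD over probes stands in for no error between experiments. Probes at floor values in both channels, 17 of the 319, have a ratio fixed near the array median and can hide a signal. Hoxd1 held 8 of them among its 37 probes. The Hoxd1 median of 0.13 is the value of such a probe, as is the median of Hoxd1 to Hoxd4 probes with 0 CpG. Hoxd8 was not analysed here, and untiled gaps flank Hoxd4 and Hoxd3.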

Other observations

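Not all HoxD probes at odds with their surroundings were dim. Just upstream of Hoxd1 a run of 3 probes with the sign turned covered 378 bp (mean -1.80), and its lowest probe, at -2.61, had a signal of 1077 in the immunoprecipitate and 5590 in input. It holds 0 CpG, so no letter is in capitals.
Hoxd1 lowest (chr2:74605782-74605838): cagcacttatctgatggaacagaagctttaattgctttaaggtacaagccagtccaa
The region of 1046 bp that begins at the Hoxd1 start is the next one along the chromosome. The lowest Hoxd11 probe was likewise bright, with 1787 in the immunoprecipitate and 5151 in input (log2 ratio -1.76), whereas the lowest Hoxd10 probe, at -0.04, was at floor values in both channels.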
